A study of Homo sapiens with 12 samples.

Results

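The AP-1 and immediate early factor genes FOS, FOSB, FOSL1, FOSL2, JUN, JUNB, JUND, ATF3, EGR1 and IER2 were chosen by name. All 10 were found among the 60645 gene names counted in each of 12 libraries, and all 10 passed the filter on low counts. The libraries came from 1 line of HEK-293T, a human embryonic kidney cell line, in which the ARID1A gene had been knocked out. Every group carried that knockout, the controls included. The cells overexpressed an empty vector (no ARID1A), wild-type ARID1A (WT) or ARID1A without the segment IDR1b (ΔIDR1b). On top of this they overexpressed EWS-FLI1 or a further empty vector (EV). Per the labels, 2 µg of an EWS-FLI1 plasmid were transfected for 48 h. The same protocol stands on the samples with EV, so the groups follow the sample titles. The labels name neither the promoter that drives ARID1A nor the fraction of cells that took up a plasmid. This made 6 groups of 2 libraries of polyA RNA. The design asks what IDR1b contributes when EWS-FLI1 regulates transcription. Nothing says that the 2 libraries of a group came from separate cultures, so the p-values measure the spread between these libraries only, which may be technical.

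AP-1 is a dimer of basic leucine zipper proteins. A FOS family protein (FOS, FOSB, FOSL1 or FOSL2) pairs with a JUN family protein (JUN, JUNB or JUND), JUN proteins can also pair with each other, and ATF3 pairs with JUN proteins or with itself. FOS, FOSB, JUNB, EGR1 and IER2 are immediate early genes, which growth factors and stress switch on within minutes without new protein synthesis, through ERK, JNK and p38 kinases acting on factors such as SRF, ELK1 and ATF2. FOSL1, FOSL2 and JUND respond more slowly or are expressed at rest. ARID1A is a subunit of the BAF (SWI/SNF) complex, a chromatin remodeller that also works at enhancers bound by AP-1. EWS-FLI1 is the fusion protein of Ewing sarcoma, which binds GGAA sequences through the ETS domain of FLI1.

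Totals ran from 11702251 to 14445379 counts per library, and mitochondrial protein genes took 1.20 to 1.78% of them. ARID1A, whose counts join the knockout locus and the introduced copy, averaged 156 and 159.8 CPM (counts scaled to a common library total) in no ARID1A with EV and with EWS-FLI1. It averaged 2056 and 2067 CPM in WT, and 2787 and 2615 CPM in ΔIDR1b, so the deleted form was counted at a higher level than WT. FLI1 had a mean of at most 0.109 CPM in any group with EV. With EWS-FLI1 it averaged 1759 CPM in no ARID1A, 3568 with WT and 1897 with ΔIDR1b, so the fusion stood highest in WT. EWSR1, the other gene of the fusion, rose with it by 1.95, 2.77 and 2.40 on the log2 scale in these 3 states. The part of the fusion's level in the results below was not tested. Of 8 genes reported as expressed in HEK-293T, 7 reached 1 CPM in every group, while NEFM did not exceed 0.0747 CPM in any library. Of 9 leukocyte, endothelial and fibroblast genes, 2 reached 1 CPM in 5 groups and 3 in ΔIDR1b with EWS-FLI1. COL1A1 and COL3A1 led these 9. The summed level of all 9 ran from 87.2 to 118.3 CPM in the no-ARID1A and WT libraries. In the ΔIDR1b libraries it ran from 120.5 to 132.5 CPM. Of the leukocyte genes, PTPRC and CD3E did not exceed 0.1505 CPM and LYZ did not exceed 0.3475. CD14, also a leukocyte gene, reached 1.28 CPM and averaged 1.227 CPM in ΔIDR1b with EWS-FLI1. The part of these markers in the results was not tested. The libraries of WT with EWS-FLI1 differed most from each other, with a chi-square per degree of freedom of 12.1 over genes with at least 10 counts, against 3.02 to 6.13 in the other groups.

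The promoters of 4 members that stood lower in ΔIDR1b and of 1 that stood higher are shown, because the comparisons below turn on these genes. Each line gives the 250 bases before the start site, from RefSeq on GRCh38.p14, 5′ to 3′ on the gene's strand, and capitals mark the motif matches named after them. FOS is at chr14:75278578-75278827 (+), FOSB at chr19:45467746-45467995 (+), JUNB at chr19:12791236-12791485 (+), JUND at chr19:18281623-18281872 (-) and EGR1 at chr5:138465229-138465478 (+).
FOS: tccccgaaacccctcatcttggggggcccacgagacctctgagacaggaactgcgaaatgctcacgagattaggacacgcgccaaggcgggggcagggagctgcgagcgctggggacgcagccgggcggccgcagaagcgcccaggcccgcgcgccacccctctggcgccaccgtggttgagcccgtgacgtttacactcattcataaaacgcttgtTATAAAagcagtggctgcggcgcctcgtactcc
FOSB: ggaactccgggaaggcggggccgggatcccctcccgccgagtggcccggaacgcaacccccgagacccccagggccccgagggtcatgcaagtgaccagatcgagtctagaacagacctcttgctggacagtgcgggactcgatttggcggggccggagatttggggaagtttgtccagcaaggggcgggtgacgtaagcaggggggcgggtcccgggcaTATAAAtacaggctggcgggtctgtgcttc
JUNB: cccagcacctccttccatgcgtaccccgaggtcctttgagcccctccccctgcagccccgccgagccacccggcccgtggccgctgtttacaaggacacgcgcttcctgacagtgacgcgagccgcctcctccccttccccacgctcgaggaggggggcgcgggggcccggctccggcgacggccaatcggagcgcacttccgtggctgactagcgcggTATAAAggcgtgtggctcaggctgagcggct
JUND: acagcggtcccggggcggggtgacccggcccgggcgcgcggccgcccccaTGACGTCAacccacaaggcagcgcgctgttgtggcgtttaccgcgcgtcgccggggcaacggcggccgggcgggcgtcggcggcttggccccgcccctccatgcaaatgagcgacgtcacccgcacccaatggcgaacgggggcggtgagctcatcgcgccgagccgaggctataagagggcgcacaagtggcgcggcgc
EGR1: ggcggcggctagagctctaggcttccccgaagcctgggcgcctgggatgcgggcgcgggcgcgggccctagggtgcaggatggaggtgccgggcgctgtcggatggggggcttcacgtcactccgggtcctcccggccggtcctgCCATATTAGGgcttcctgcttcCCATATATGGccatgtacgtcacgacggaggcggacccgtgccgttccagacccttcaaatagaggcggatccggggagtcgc

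RefSeq promoters were matched for 9 of the 10 members, all but FOSL1, with 2 start sites for ATF3. The TATA box letters TATAAA, searched on both strands as were all motifs, stand in the capitals of FOS 33 to 28 bases before the start, of FOSB 30 to 25 and of JUNB 31 to 26. They also stand at 1 start site of ATF3, 230 to 225 bases before it, and in 10.7% of 35116 human promoters of the same length. The 2 capital stretches of EGR1 match the CArG box, the SRF site, at 105 to 96 and 83 to 74 bases before the start. That match was found in 1.16% of all promoters and in no other of the 9 matched members. Sites farther upstream than 250 bases were not searched for any motif. The capitals of JUND match TGACNTCA, a cAMP response type site, which JUN and ATF3 also hold, and which 6.87% of all promoters hold. The AP-1 letters TGANTCA (6.57% of all promoters) and the pair of GGAA units GGAAGGAA (3.06%) were found in none of the 9. A match is a string of letters, not a bound site.

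The members covered a wide range of levels. Per kilobase of exon, the median over 12 libraries was 725.2 CPM for JUN, 261.4 for JUND, 191.9 for ATF3 and 102.1 for JUNB. It was 17.12 for FOS, 15.39 for IER2, 7.809 for EGR1, 5.575 for FOSL2, 3.718 for FOSL1 and 1.51 for FOSB. JUN family transcripts thus led FOS family transcripts in these growing cells. The ranges over libraries of neighbours in this order overlapped, those of JUN (593.9 to 965) and JUND (133.8 to 422.1) excepted. Exon lengths include bases shared with other genes, 52.2% for IER2 and 14.2% for JUNB, where no fragment was counted. The levels of IER2 and JUNB per kilobase are therefore understated, and the order of FOS and IER2 is not settled. The members also differed in how far their group means moved. The highest and lowest group means of FOS lay 3.71 apart on the log2 scale, farther than in 99.47% of the tested genes. For FOSB the distance was 2.46 (95.35% of genes smaller) and for JUN 0.53 (31.84% smaller).

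**Figure D1:**
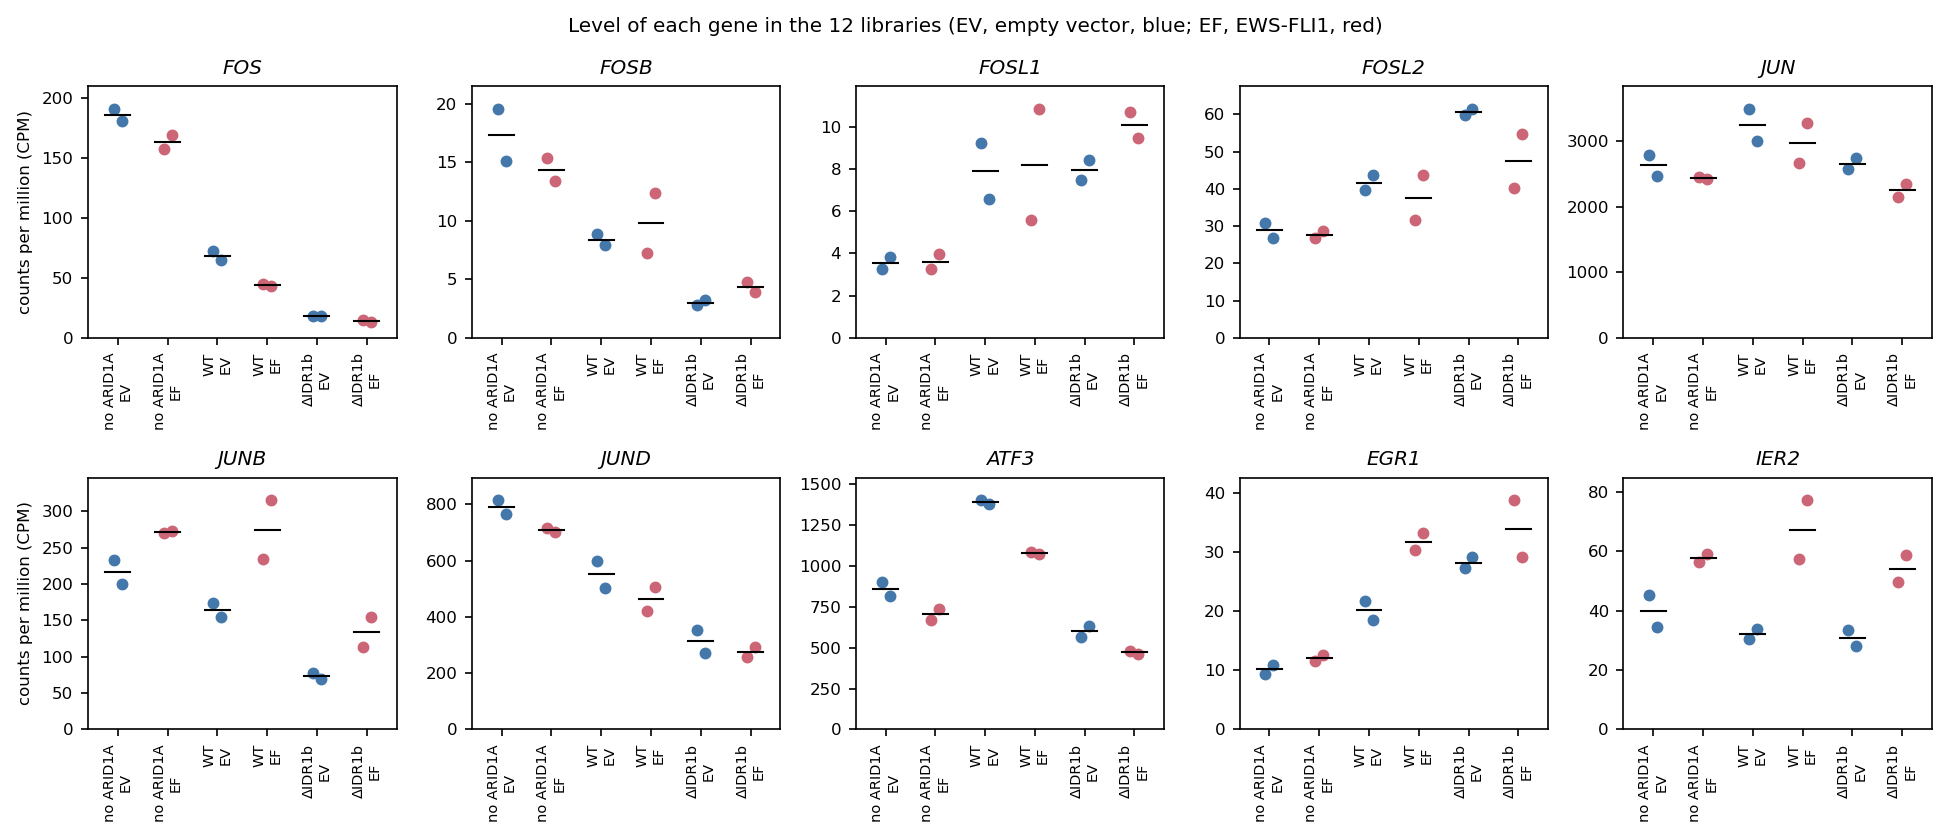
Level of each of the 10 genes in CPM (y axis, from 0, a scale per gene) in the 12 libraries by group (x axis); points are libraries and bars the mean of 2. FOS falls from 180.8 to 190.7 CPM in no ARID1A with EV to 17.91 to 18.09 in ΔIDR1b with EV, while EGR1 rises from 9.441 to 10.92 to 27.27 to 29.17.

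How many members changed was counted with edgeR's quasi-likelihood test on all 12 libraries. A call is an adjusted p under 0.05 (Benjamini-Hochberg, over 20377 genes). Adding WT to the knockout cells with EV changed 9 of 10 members (5 higher, 4 lower), where 11.7% of all genes tested were called, 6.50% higher and 5.19% lower. Adding ΔIDR1b changed 8 (3 higher, 5 lower), beside 33.3% of all genes (16.4% and 16.8%). ΔIDR1b against WT changed 8 (2 higher, 6 lower), beside 24.5% (11.1% and 13.4%). In the libraries with EWS-FLI1 the same 3 comparisons changed 7 members (5 higher, 2 lower), 8 (3 higher, 5 lower) and 6 (0 higher, 6 lower). Of all genes 18.1% (9.72% higher, 8.36% lower), 35.9% (18.1% and 17.9%) and 18.6% (8.48% and 10.1%) were called there. The 2 sets of libraries are separate. Members called the same way in both numbered 7 for WT against no ARID1A, 8 for ΔIDR1b against no ARID1A and 6 for ΔIDR1b against WT, where 8.4, 26.2 and 13.6% of all genes were called the same way in both. No member was called in opposite directions. Calls for EWS-FLI1 were few. In no ARID1A it changed 0 members by edgeR and 0 by DESeq2, 3 had an unadjusted p under 0.05, and a fit of the 4 libraries compared called 2. Of all genes 0.0442% were called there (0.0393% higher, 0.00491% lower). In WT it changed 3 members (2 higher, 1 lower), beside 0.221% of all genes (0.152% and 0.0687%). In ΔIDR1b it changed 2 (2 higher, 0 lower), beside 0.172% (0.123% and 0.0491%).

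FOS, the partner that makes the most transient AP-1 dimers, fell in steps from no ARID1A to WT to ΔIDR1b. With EV its 2 libraries stood at 190.7 and 180.8 CPM in no ARID1A, 72.09 and 64.47 in WT, and 17.91 and 18.09 in ΔIDR1b. With EWS-FLI1 they stood at 157.5 and 168.8, 44.64 and 43.28, and 14.72 and 13.35 CPM. The libraries of the 3 states did not overlap with either vector. The share of all genes without overlap was not counted, here or below. With 2 libraries per group, a lack of overlap says little by itself. WT lowered FOS by 2.72-fold with EV (log2 fold change -1.44, SE 0.11, edgeR adjusted p = 2.16e-11), while ΔIDR1b did so by 10.3-fold (-3.37, SE 0.12, adjusted p = 7.82e-21). ΔIDR1b stood 3.79-fold below WT (-1.92, SE 0.12, adjusted p = 1.41e-13). With EWS-FLI1 the log2 fold changes were -1.89, -3.54 and -1.65 (SE 0.11 to 0.13), all called. These 6 calls held in all 25 alternative fits. In bulk RNA, fewer cells expressing a gene and less RNA in each cell cannot be told apart. FOS lies at chromosome 14, 75278826 to 75282230 (GRCh38, GENCODE 41, as are all gene positions below), and no other gene overlaps its exons.

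FOSB (chromosome 19, 45467995 to 45475179), the close relative of FOS, had lower counts and a similar order. Its libraries with EV held 263 and 202 counts in no ARID1A (19.55 and 15.11 CPM), 119 and 106 in WT (8.853 and 7.919 CPM), and 38 and 45 in ΔIDR1b (2.778 and 3.217 CPM). With EWS-FLI1 they stood at 15.34 and 13.39 CPM, 7.226 and 12.36 CPM, and 4.742 and 3.893 CPM. The 3 states did not overlap with either vector, and the libraries of WT with EWS-FLI1 lay farthest apart. ΔIDR1b stood below no ARID1A on the log2 scale with EV (-2.527, SE 0.26, edgeR adjusted p = 1.91e-09) and with EWS-FLI1 (-1.73, SE 0.25, adjusted p = 1.11e-06). Against WT the log2 fold changes were -1.48 (SE 0.27, adjusted p = 9.95e-05) and -1.18 (SE 0.25, adjusted p = 0.00103). The latter missed the threshold without replicate 2 of WT with EWS-FLI1 (-0.75, adjusted p = 0.0505, range over 25 alternatives 4.02e-06 to 0.0505). WT against no ARID1A was -1.05 with EV (SE 0.23, adjusted p = 0.0022), not called without replicate 1 of no ARID1A with EV (-0.85, adjusted p = 0.064, range 6.84e-05 to 0.064). With EWS-FLI1 it was -0.55 (SE 0.23, adjusted p = 0.0901), not called, and reached -0.99 when replicate 2 of WT was left out (adjusted p = 0.0055, range 0.0055 to 0.616).

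FOSL1 and FOSL2 went the other way. They encode FRA1 and FRA2, FOS family proteins that lack the strong activation domain of FOS. FOSL2 (chromosome 2, 28392448 to 28417317) stood at 30.93 and 26.77 CPM in no ARID1A, 39.58 and 43.63 with WT and 59.87 and 61.48 with ΔIDR1b with EV. With EWS-FLI1 it stood at 26.77 and 28.6, 31.54 and 43.74, and 40.27 and 54.63 CPM, where WT and ΔIDR1b overlapped. ΔIDR1b raised FOSL2 2.1-fold with EV (log2 1.07, SE 0.15, edgeR adjusted p = 1.07e-06) and by 0.78 on the log2 scale with EWS-FLI1 (SE 0.15, adjusted p = 1.42e-04), and both calls held in all 25 alternatives. ΔIDR1b exceeded WT with EV by 0.54 (SE 0.15, adjusted p = 0.00621), a call lost without replicate 1 of WT (0.47, adjusted p = 0.0952) or replicate 2 of ΔIDR1b (0.52, 0.0546, range 1.23e-04 to 0.0952). With EWS-FLI1 that difference was 0.33 (SE 0.15, adjusted p = 0.114), and passed without replicate 2 of WT (0.59, 0.0048) or replicate 1 of ΔIDR1b (0.54, 0.0385, range 0.0048 to 0.792).

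FOSL2 in WT against no ARID1A was 0.53 with EV (SE 0.15, adjusted p = 0.0201) and 0.44 with EWS-FLI1 (SE 0.16, adjusted p = 0.0427). The first missed the threshold without replicate 2 of no ARID1A with EV (0.43, adjusted p = 0.226) and without replicate 1 (0.60, 0.0677) or 2 (0.47, 0.14) of WT with EV (range 1.53e-04 to 0.226). The second was called in 13 of 25 alternatives (range 0.00117 to 0.471) and missed without either library of no ARID1A with EWS-FLI1 (0.40 and 0.49, adjusted p = 0.231 and 0.123) and when replicate 2 of WT with EWS-FLI1 was left out (0.19, 0.471). It also missed, at 0.45 each, without replicate 1 of WT with EV (0.0513) and replicates 1 and 2 of ΔIDR1b with EV (0.0539 and 0.0543).

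FOSL1 (chromosome 11, 65892049 to 65900573) was counted 38 to 151 times per library. It stood at 3.271 and 3.814 CPM in no ARID1A, 9.225 and 6.574 with WT and 7.457 and 8.435 with ΔIDR1b with EV. With EWS-FLI1 the libraries were at 3.239 and 3.975, 5.57 and 10.84, and 10.69 and 9.453 CPM. All libraries with either form of ARID1A were above all without it. The rise in ΔIDR1b was 2.24-fold with EV (log2 1.16, SE 0.29, edgeR adjusted p = 0.00183) and 2.79-fold with EWS-FLI1 (1.48, SE 0.29, adjusted p = 1.12e-04), called in all 25 alternatives. In WT the log2 rises were 1.16 (SE 0.29, adjusted p = 0.00688) and 1.18 (SE 0.29, adjusted p = 0.00382). The first missed the threshold without replicate 1 of no ARID1A (1.05, adjusted p = 0.0757) or replicate 1 of WT with EV (0.89, 0.155, range 8.17e-05 to 0.155). The second did so without replicate 1 of no ARID1A (1.04, 0.0654) or replicate 2 of WT with EWS-FLI1 (0.63, 0.193, range 4.5e-05 to 0.193). Between ΔIDR1b and WT the interval of the log2 difference was -0.51 to 0.53 with EV and -0.21 to 0.80 with EWS-FLI1. The latter difference (0.30, adjusted p = 0.463) passed without replicate 2 of WT with EWS-FLI1 (0.85, adjusted p = 0.0391, range 0.0391 to 0.846).

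The make-up of the FOS family shifted with these changes. Per kilobase of exon, FOS held 86.6 ± 0.57% of the family's level in no ARID1A with EV, 65.0 ± 0.35% in WT and 29.9 ± 0.78% in ΔIDR1b (SD, n = 2 each). FOSL2 held 5.97 ± 0.35, 17.8 ± 2.5 and 44.9 ± 0.64%, and FOSL1 2.8 ± 0.42, 12.7 ± 2.1 and 22.2 ± 1.2%. In both ΔIDR1b libraries with EV, FOSL2 held the largest share. The family's summed level fell from 67.33 ± 2.96 to 32.94 ± 2.40 and 18.87 ± 0.62 CPM per kilobase. These are shares of the values given above and carry no test of their own. With EWS-FLI1 FOS held 85.9 ± 0.35% in no ARID1A, 55.5 ± 9.0% in WT (49.1 and 61.8% in its 2 libraries) and 25.8 ± 2.6% in ΔIDR1b. There FOSL2 held 6.49 ± 0.014, 20.8 ± 1.9 and 38.5 ± 7.1%, and FOSL1 3.21 ± 0.32, 16.9 ± 5.5 and 31.2 ± 3.7%. The 2 ΔIDR1b libraries with EWS-FLI1 differed in the leading gene, with 33.8% FOSL1 and 33.5% FOSL2 in replicate 1 and 28.6% and 43.5% in replicate 2.

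**Figure D2:**
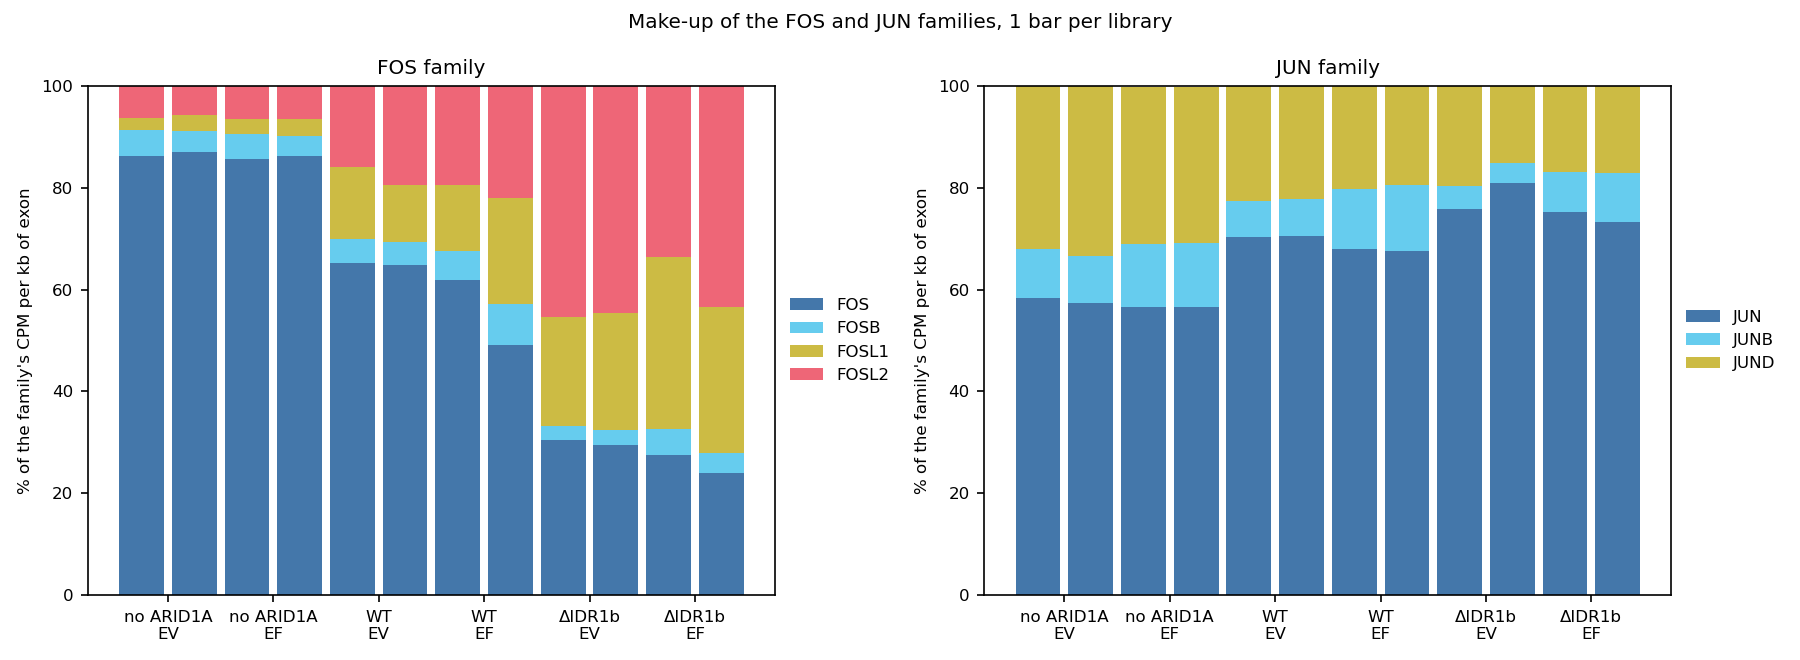
Share of each gene in the summed CPM per kilobase of exon of its family (y axis, percent), 1 bar per library, by group (x axis), for the FOS family (left) and the JUN family (right). FOS takes 86.2 to 87% in no ARID1A with EV and 29.4 to 30.5% in ΔIDR1b with EV. JUN takes 57.4 to 58.4% and 75.9 to 80.9% in the same groups. Exon length includes the 14.2% of JUNB bases shared with HOOK2, so the share of JUNB is understated.

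Within the JUN family, the highest and lowest group means lay 0.53 apart on the log2 scale for JUN, 1.52 for JUND and 1.89 for JUNB. JUN (chromosome 1, 58776845 to 58784048), the main activating partner, was the most abundant member with 28023 to 47007 counts per library. With EV it stood at 2792 and 2475 CPM in no ARID1A, 3497 and 3012 with WT and 2582 and 2741 with ΔIDR1b. With EWS-FLI1 it stood at 2462 and 2422, 2674 and 3279, and 2152 and 2355 CPM. WT was highest with both vectors. WT exceeded no ARID1A by 0.31 on the log2 scale with EV (SE 0.10, edgeR adjusted p = 0.0322) and 0.29 with EWS-FLI1 (SE 0.10, adjusted p = 0.0336), and ΔIDR1b stood below WT by 0.29 (-0.29, SE 0.10, adjusted p = 0.0237) and 0.40 (-0.40, SE 0.10, adjusted p = 0.00307). These changes are close to what the scaling decides. With upper-quartile factors the first 3 were 0.24 (adjusted p = 0.102), 0.23 (0.0939) and -0.23 (0.0825), over ranges of 6.48e-05 to 0.347, 1.07e-04 to 0.336 and 8.04e-08 to 0.336. With plain library totals WT against no ARID1A with EV was 0.26 (0.0568) and ΔIDR1b against WT with EV -0.12 (0.336).

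Single libraries also decided some JUN calls. WT against no ARID1A with EV was not called without replicate 2 of no ARID1A (0.22, edgeR adjusted p = 0.338) or replicate 1 of WT (0.20, 0.347). With EWS-FLI1 it was not called without replicate 1 (0.30, 0.131) or 2 (0.28, 0.168) of no ARID1A or replicate 2 of WT (0.13, 0.336). ΔIDR1b against WT with EV was not called without replicate 1 of WT (-0.18, 0.289) or replicate 1 (-0.25, 0.165) or 2 (-0.34, 0.0558) of ΔIDR1b. With EWS-FLI1 the call was missed in a fit of the 4 libraries compared (-0.41, 0.0705, range 3.91e-10 to 0.0705). Between ΔIDR1b and no ARID1A JUN was not called, with an interval of -0.17 to 0.20 with EV and -0.30 to 0.07 with EWS-FLI1.

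JUNB and JUND, the family members that activate less strongly than JUN, both stood lowest in ΔIDR1b. JUND (chromosome 19, 18279694 to 18281622) stood at 814.3 and 765.7 CPM in no ARID1A, 599 and 503.1 with WT and 354.9 and 271.1 with ΔIDR1b with EV. With EWS-FLI1 the libraries were at 717.8 and 703.2, 422.7 and 505.5, and 258.1 and 292.4 CPM. The 3 states did not overlap with either vector. The log2 fold change was -0.52 in WT (SE 0.11, edgeR adjusted p = 0.00192), -1.34 in ΔIDR1b (SE 0.11, adjusted p = 4.08e-11) and -0.82 between ΔIDR1b and WT (SE 0.11, adjusted p = 2.35e-06) with EV. It was -0.61, -1.37 and -0.75 with EWS-FLI1, each called in all 25 alternatives. The WT change with EV missed the threshold without replicate 2 of WT with EV (-0.39, adjusted p = 0.0807, range 2.97e-07 to 0.0807).

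JUNB (chromosome 19, 12791486 to 12793315) shares 14.2% of its exonic bases with HOOK2, and fragments there were not counted for either gene. HOOK2 stood at 29.2 to 42 CPM and was called in none of the comparisons. With EV JUNB stood at 232.8 and 200.5 CPM in no ARID1A, 173.3 and 154.9 with WT and 77.13 and 69.7 with ΔIDR1b. With EWS-FLI1 it stood at 270.9 and 273.1, 234.6 and 315.1, and 113.2 and 155.1 CPM. ΔIDR1b was below all libraries of the other states within each vector. ΔIDR1b stood below no ARID1A by 1.56 on the log2 scale with EV (-1.56, SE 0.13, edgeR adjusted p = 3.18e-11) and by 1.02 with EWS-FLI1 (-1.02, SE 0.13, adjusted p = 1.11e-07). It stood below WT by 1.16 (-1.16, SE 0.13, adjusted p = 6.46e-08) and by 1.03 (-1.03, SE 0.13, adjusted p = 5.27e-07), and these 4 calls held in all 25 alternatives. WT against no ARID1A was -0.40 with EV (SE 0.13, adjusted p = 0.0339) and lost its call without any 1 of the 4 libraries compared. Its adjusted p was then 0.31 and 0.0559 without replicates 1 and 2 of no ARID1A, and 0.0894 and 0.259 without those of WT (range 4.07e-04 to 0.31). Removing the trend with gene length gave -0.23 (adjusted p = 0.231). With EWS-FLI1 the interval of that difference was -0.23 to 0.26.

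ATF3 (chromosome 1, 212565334 to 212620777), a stress-induced factor that often represses as a homodimer, moved in opposite directions with the 2 forms of ARID1A. With EV it stood at 904.1 and 816.1 CPM in no ARID1A, 1401 and 1378 with WT and 566.7 and 632.3 with ΔIDR1b. With EWS-FLI1 the libraries were at 671.5 and 734.6, 1087 and 1075, and 478.8 and 464.4 CPM. WT was above and ΔIDR1b below no ARID1A in every library of each vector. WT exceeded no ARID1A by 0.69 on the log2 scale with EV (SE 0.09, edgeR adjusted p = 2.3e-06) and 0.62 with EWS-FLI1 (SE 0.09, adjusted p = 7.51e-06). ΔIDR1b stood below it by 0.52 (-0.52, SE 0.09, adjusted p = 3.1e-05) and 0.58 (-0.58, SE 0.09, adjusted p = 6.51e-06). ΔIDR1b against WT came to -1.21 (SE 0.09, adjusted p = 1.36e-11) and -1.20 (SE 0.09, adjusted p = 2.46e-11), a 2.32-fold and 2.29-fold lower level. All 6 calls held in all 25 alternatives.

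EGR1 (chromosome 5, 138465479 to 138469303), a zinc finger factor induced through SRF and ELK1, rose with both forms of ARID1A. With EV it stood at 9.441 and 10.92 CPM in no ARID1A, 21.72 and 18.53 with WT and 27.27 and 29.17 with ΔIDR1b. With EWS-FLI1 it stood at 11.51 and 12.53, 30.26 and 33.28, and 38.72 and 29.19 CPM. Libraries without ARID1A were lowest with both vectors. WT raised EGR1 by 0.98 on the log2 scale with EV (SE 0.18, edgeR adjusted p = 2.23e-04) and 1.40 with EWS-FLI1 (SE 0.17, adjusted p = 2.99e-07), and ΔIDR1b by 1.47 (SE 0.17, adjusted p = 3.51e-08) and 1.497 (SE 0.17, adjusted p = 1.74e-08). These 4 calls held in all 25 alternatives. ΔIDR1b stood above WT with EV by 0.49 (SE 0.16, adjusted p = 0.0247), which was lost without replicate 2 of WT (0.38, adjusted p = 0.207) or replicate 1 (0.53, 0.0719) or 2 (0.44, 0.161) of ΔIDR1b, and when length trends were removed (0.37, 0.0857, range 0.00287 to 0.207). With EWS-FLI1 the interval of that difference was -0.21 to 0.40.

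IER2 (chromosome 19, 13150411 to 13154911), an immediate early nuclear protein, was called in none of the 6 comparisons of ARID1A states. With EV it stood at 45.2 and 34.4 CPM in no ARID1A, 30.35 and 33.92 with WT and 33.63 and 28.24 with ΔIDR1b. With EWS-FLI1 the libraries were at 56.43 and 59.19, 57.21 and 77.09, and 49.55 and 58.6 CPM. The states overlapped for ΔIDR1b and WT with EV and for all pairs with EWS-FLI1. The nearest to a call was ΔIDR1b against no ARID1A with EV (log2 -0.36, SE 0.15, edgeR adjusted p = 0.0601), which passed in 9 of 25 alternatives (range 1.24e-04 to 0.596), among them those without replicate 2 of no ARID1A with EV (-0.55, 0.0223) and without either library of WT with EWS-FLI1 (-0.37 and -0.36, 0.0185 and 0.0198). With EWS-FLI1, leaving out replicate 1 of WT gave calls against no ARID1A (0.42, adjusted p = 0.0324, with all libraries 0.22, range 0.0324 to 0.969) and for ΔIDR1b against WT, which passed in 6 of 25 (-0.51, adjusted p = 0.00835, with all libraries -0.31, range 1.59e-04 to 0.745). Of the exonic bases of IER2, 52.2% overlap 2 unnamed genes that had 0 counts in all libraries, and fragments in that overlap were counted for no gene, so those bases add nothing to its level.

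The next comparisons asked what EWS-FLI1 did to the same genes within each ARID1A state. JUNB and IER2 rose, and FOS and ATF3 fell. Averaged over the 3 states, 4 of 10 members changed (2 higher, 2 lower), where 0.466% of all genes were called (0.294% higher, 0.172% lower). IER2 rose by 0.80 on the log2 scale (SE 0.09, edgeR adjusted p = 7.31e-08) and JUNB by 0.65 (SE 0.07, adjusted p = 3.36e-07). FOS changed by -0.39 (SE 0.07, adjusted p = 7.6e-04) and ATF3 by -0.33 (SE 0.05, adjusted p = 1.94e-04). These 4 held in all 24 alternatives. Differences between replicates 1 and 2 correlated between groups of the same vector (0.104 to 0.412 over genes). The libraries of a vector may therefore not be independent, and the p-values of the average may be too small. EGR1 was 0.39 higher (SE 0.10, adjusted p = 0.0653), not called, and passed in 9 of 24 alternatives (range 0.00694 to 0.386). The EGR1 difference passed without replicate 1 (0.41, 0.0175) or 2 (0.36, 0.0362) of the WT libraries with EWS-FLI1, or when replicate 2 of ΔIDR1b with EWS-FLI1 was left out (0.45, 0.0196). Without replicate 2 of WT with EWS-FLI1 the average called 7 members, with JUN (-0.21, adjusted p = 0.00511, range 0.00257 to 0.643) and JUND (-0.24, adjusted p = 0.0102, range 0.00596 to 0.775) besides.

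State by state, IER2 was 0.54 higher in no ARID1A (SE 0.15, edgeR adjusted p = 0.727), 1.06 in WT (SE 0.15, adjusted p = 3.23e-05) and 0.81 in ΔIDR1b (SE 0.15, adjusted p = 0.00416). In the libraries listed above, those with EWS-FLI1 did not overlap those with EV in any state. With 2 libraries per group this says little, as those of JUN did not overlap in no ARID1A either (edgeR unadjusted p = 0.261). The ΔIDR1b call was lost without replicate 2 of ΔIDR1b with EV (0.69, adjusted p = 0.402) or with EWS-FLI1 (0.68, 0.147, range 6.48e-08 to 0.402). The no-ARID1A difference passed in 5 of 25 alternatives (range 0.00663 to 1). JUNB was 0.33 higher in no ARID1A (SE 0.13, adjusted p = 1), 0.74 in WT (SE 0.13, adjusted p = 0.00121) and 0.87 in ΔIDR1b (SE 0.13, adjusted p = 1.71e-04), again with no overlap. The WT call was lost without replicate 2 of WT with EV (0.67, adjusted p = 0.16, range 3.06e-12 to 0.16). FOS in WT was -0.64 (SE 0.11, adjusted p = 0.00227), not called without replicate 1 of WT with EV (-0.55, 0.159) or in a fit of the 4 libraries compared (-0.63, 0.166, range 5.28e-07 to 0.166). In no ARID1A and ΔIDR1b the values of FOS were -0.19 and -0.36, not called.

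ATF3 gave log2 differences of -0.29, -0.36 and -0.35 in no ARID1A, WT and ΔIDR1b (SE 0.09 each), none called, with edgeR adjusted p of 1, 0.103 and 0.181. Their libraries did not overlap in any state, which says little with 2 libraries per group. DESeq2 called the WT and ΔIDR1b differences (-0.35 each, adjusted p = 0.0275 and 0.0399). So did edgeR when replicate 1 of WT with EWS-FLI1 was left out (-0.37 and -0.35, 0.0352 and 0.0165) and, for ΔIDR1b, when replicate 2 of that WT group was (-0.35, 0.0159). Their ranges were 7.59e-05 to 0.999 and 2.43e-04 to 1. EGR1 in WT was 0.66 higher (SE 0.16, edgeR adjusted p = 0.0872), and passed without replicate 1 of WT with EWS-FLI1 (0.73, 0.0241, range 0.00586 to 0.608). FOSB, FOSL1, FOSL2 and JUND were called in no single state, nor was JUN.

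Whether the EWS-FLI1 effect differed between ARID1A states was tested by interaction. It called 0 members for WT against no ARID1A, beside 0.0245% of all genes (0.00981% higher, 0.0147% lower). It called 0 for ΔIDR1b against no ARID1A, beside 0.0196% (0.00491% and 0.0147%), and 0 for ΔIDR1b against WT, beside 0.00%. Of the members 3, 2 and 0 had an unadjusted p under 0.05, and DESeq2 called 0 in each. For IER2 the WT effect exceeded that in no ARID1A by 0.52 on the log2 scale, with an interval of 0.12 to 0.93 (edgeR adjusted p = 1). For JUNB the excess was 0.42 (0.07 to 0.76) in WT and 0.54 (0.19 to 0.90) in ΔIDR1b (adjusted p = 1 each). The JUNB excess in ΔIDR1b was called once the trends with gene length and GC content were removed (0.61, adjusted p = 0.0198, range 0.00152 to 1). FOS differed by -0.45 (-0.75 to -0.15) in WT and FOSB by 0.79 (0.09 to 1.5) in ΔIDR1b, neither called. Calls in some states only are therefore no evidence of a different response.

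The other immediate early genes of the pathway, a list of 29 of which 28 were tested, were set beside the members. Between ΔIDR1b and WT, 0 were higher and 18 lower with EV, with a median log2 fold change of -0.76 against 0.01 over all genes, of which 13.4% were called lower. With EWS-FLI1 0 were higher and 21 lower, with a median of -0.745 against 0.01 and 10.1% of all genes called lower. CCN1, a secreted matrix protein, changed most with both vectors (-2.18, SE 0.11, edgeR adjusted p = 3.86e-16, and -2.09, SE 0.11, adjusted p = 1.28e-15), from a mean of 570.4 CPM in WT to 126 in ΔIDR1b with EV. CCN2 and the nuclear receptor NR4A2 followed, at -2.01 (SE 0.25) and -1.40 (SE 0.20) with EV and -1.24 (SE 0.24) and -1.42 (SE 0.21) with EWS-FLI1. NR4A3 with EV (-1.30, SE 0.20) and GADD45B with EWS-FLI1 (-1.14, SE 0.15) were the fourth of each. The lower counts ran from 16 to 23 with EV and 15 to 25 with EWS-FLI1 over the alternatives.

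**Figure D3:**
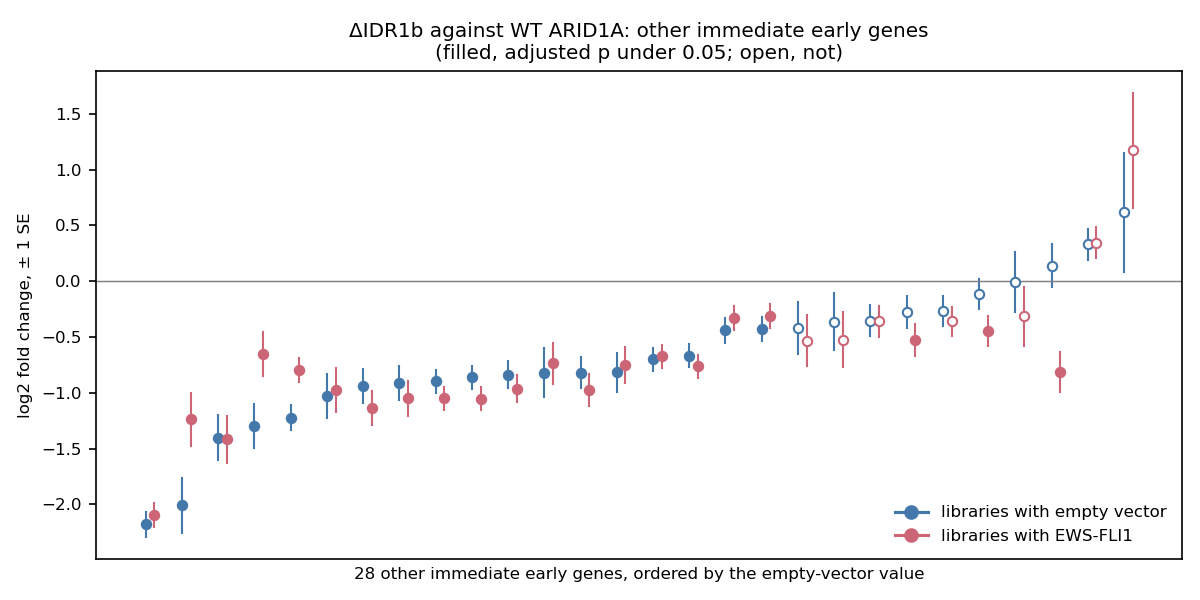
Log2 fold change with 1 standard error (y axis) between ΔIDR1b and WT for 28 other immediate early genes (x axis, ordered by the value with empty vector), in libraries with empty vector (blue) and EWS-FLI1 (red); filled points have an adjusted p under 0.05. The filled points, 18 blue and 21 red, all lie below 0.

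Against no ARID1A the same list split by gene. WT changed 16 of 28 with EV (9 higher, 7 lower) and 15 with EWS-FLI1 (10 higher, 5 lower), and ΔIDR1b 22 (4 higher, 18 lower) and 20 (5 higher, 15 lower). With EV, 6.50% and 5.19% of all genes were called higher and lower in WT, and 16.4% and 16.8% in ΔIDR1b. With EWS-FLI1 these shares were 9.72% and 8.36%, and 18.1% and 17.9%. The values of ARC, EGR3, IER5L, NR4A2 and PPP1R15A that follow are those with EV. ARC, a neuronal activity gene, rose with WT by 2.06 (SE 0.16, edgeR adjusted p = 2.16e-11) and with ΔIDR1b by 1.78 (SE 0.16, adjusted p = 7.89e-11). EGR3, like EGR1 a zinc finger factor, rose with WT by 1.38 (SE 0.30, adjusted p = 0.00224). IER5L fell with WT (-2.12, SE 0.17) and with ΔIDR1b (-3.147, SE 0.19), and so did NR4A2 (-1.62, SE 0.17, and -3.03, SE 0.19). PPP1R15A, which encodes the stress phosphatase subunit GADD34, fell with ΔIDR1b (-1.958, SE 0.11, adjusted p = 1.86e-15).

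EWS-FLI1, averaged over the states, changed 7 of the 28 (3 higher, 4 lower), beside 0.294% and 0.172% of all genes called higher and lower. The kinase gene SGK1 rose by 1.59 (SE 0.12, edgeR adjusted p = 7.54e-12), the Krüppel-like factor gene KLF2 by 1.20 (SE 0.11, adjusted p = 2.01e-09) and ZFP36, which encodes a protein that destabilises AU-rich mRNAs, by 0.71 (SE 0.10, adjusted p = 1.18e-05). CCN1 changed by -0.50 (SE 0.06, adjusted p = 1.65e-06). SGK1 was called in all 3 states, going from a mean of 7.681 to 20.56 CPM in no ARID1A, from 8.763 to 27.15 in WT and from 4.959 to 16.3 in ΔIDR1b. KLF2 was called in no ARID1A (9.281 to 21.3 CPM) and WT (12.93 to 41.31 CPM), and went from 14.23 to 23.5 CPM in ΔIDR1b without a call.

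Genes upstream of AP-1 and its other dimer partners were counted in the same way. Of 20 kinases and factors that act on the members, 0 were called with EWS-FLI1 in any single state or on average, with medians between -0.06 and 0.02. Of all genes 0.0442, 0.221 and 0.172% were called in no ARID1A, WT and ΔIDR1b, and 0.466% on average. At such shares 0 of 20 says little about these genes. WT with EV raised 3 of the 20 (0 lower), MRTFA, a coactivator of SRF (0.70, SE 0.13), ELK3 (0.61, SE 0.16) and ELK4 (0.42, SE 0.12), and ΔIDR1b raised 7 and lowered 2, with MRTFA at 0.99 (SE 0.13). With EWS-FLI1 WT raised 7 and lowered 1, and ΔIDR1b raised 6 and lowered 2. Of all genes 11.7% and 33.3% were called for WT and ΔIDR1b with EV, and 18.1% and 35.9% with EWS-FLI1. Of 13 further AP-1 dimer partners, 12 were tested. WT with EV raised 4 of them and lowered 0, MAFG, MAFF, MAFK and JDP2 (0.55 to 0.98), and ΔIDR1b raised 4 and lowered 1, beside the same shares of all genes. With EWS-FLI1 WT raised 5 and lowered 0, and ΔIDR1b raised 5 and lowered 1. Between ΔIDR1b and WT, 1 of these partners was higher and 3 lower with EV, and 0 and 4 with EWS-FLI1. Of the 20 upstream genes, 3 were higher and 4 lower with EV, and 3 and 2 with EWS-FLI1. Of all genes 11.1% were called higher and 13.4% lower there with EV, and 8.48% and 10.1% with EWS-FLI1. MAFF stood at a mean of 17.89, 33.99 and 17.26 CPM in no ARID1A, WT and ΔIDR1b with EV.

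Of 20 textbook AP-1 target genes, 14 were tested. WT changed 4 with EV (3 higher, 1 lower) and ΔIDR1b 6 (4 higher, 2 lower), and ΔIDR1b against WT 4 (1 higher, 3 lower), where 11.7, 33.3 and 24.5% of all genes were called. With EWS-FLI1 WT raised 7 and lowered 1, ΔIDR1b raised 4 and lowered 2, and ΔIDR1b stood above WT in 1 and below it in 3, where 18.1, 35.9 and 18.6% of all genes were called. CCND1, the cyclin D1 gene, rose in the order no ARID1A, WT, ΔIDR1b, at 16.97, 30.64 and 46.11 CPM with EV and 17.42, 45.52 and 71.95 with EWS-FLI1, the reverse order of FOS. Its log2 fold change was 0.85 (SE 0.15, edgeR adjusted p = 1.39e-04) with WT and 1.44 (SE 0.14, adjusted p = 1.33e-09) with ΔIDR1b, both with EV, and 1.39 (SE 0.15) and 2.04 (SE 0.14) with EWS-FLI1. IL11, a cytokine gene, rose with WT and with ΔIDR1b, by 1.02 (SE 0.22) and 1.25 (SE 0.22) with EV. With EWS-FLI1 these rises were 1.03 (SE 0.22) and 0.91 (SE 0.22). HBEGF, which encodes an EGF receptor ligand, was lower in ΔIDR1b than in WT with EV (-0.70, SE 0.15, edgeR adjusted p = 5.99e-04). With EWS-FLI1 this difference was -0.42 (SE 0.15, edgeR adjusted p = 0.0406).

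The profiles most like those of the 3 members with the largest variance between groups were sought among 16684 genes over 12 libraries, by the root mean square (RMS) difference of log2 CPM centred per gene. For FOS they were MVP-DT, a divergent noncoding transcript, the linker histone gene H1-2 and the chemokine receptor gene CXCR4, at 0.203, 0.205 and 0.223, where FOS itself lay 1.42 from its own mean. For FOSB they were PPP1R15A (0.243), ID3 (0.268) and ENSG00000274565 (0.274), with 0.896 for FOSB itself. For EGR1 they were TFCP2L1 (0.156), NPTX1 (0.186) and GCC1 (0.189), with 0.68 for EGR1 itself. The RMS is a description, and the libraries share their groups and depth.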

How the data were processed

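PolyA RNA of 12 libraries in 6 groups of 2 was used. Per the file headers, the authors counted read pairs over the exons of GENCODE 41 (GRCh38, patch 13) with featureCounts 2.0.1 by gene name, with both ends aligned, no strand option, and without pairs of ambiguous place or gene. The deposited values are these raw counts, with no normalization. The submitters' processing notes also name STAR, SAMtools and edgeR without versions. Without strand, reads of a gene and an antisense gene cannot be told apart.

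Genes were kept by filterByExpr (minimum count 10), which left 20377 of 60645, and 20991 names had no count. CPM were computed on library sizes times TMM factors (trimmed mean of M-values). The quasi-likelihood model of edgeR 4.0.16 (R 4.3.3) had a term for each of the 6 groups and took in all 12 libraries, and 13 contrasts were tested two-sided, with Benjamini-Hochberg adjustment over all genes. Each SE was derived from the log2 fold change and its F statistic, and intervals are at 95%. Data were simulated for ΔIDR1b against no ARID1A with EV (19153 genes), with a fixed dispersion and 100 genes changed at each fold. There the fit recovered 48% of 1.5-fold and 97% of 2-fold changes and called 4 unchanged genes. In the real comparison 33.3% of genes were called, so these rates need not hold there.

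Members were taken by name, and the members and lists were chosen with earlier results of these data known. All members are named in every comparison, and of each list up to 4 called genes with the largest change per comparison. HOOK2 was added for its overlap, and MAFF and CCND1 levels were described after their values were seen. The alternatives were other scalings, DESeq2 1.42.0, other filters, only the libraries compared, replicate blocks, trends with gene length, and 12 fits without 1 library each, which leave that group with a lone library assumed to vary like the others. Trends with GC content were added after seeing the data, from GENCODE 29 transcripts. By themselves, read counts of amplified fragments account for counting error only. The spread between libraries of a group exceeded it (chi-square per degree of freedom 3.02 to 12.1), and the fit estimated that spread.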

Additional observations from a re-analysis of the deposited data

How the results depend on the processing

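The 55 member differences called kept their direction in all alternatives, and their calls in 688 of 711 fits on all libraries or the libraries compared and in 623 of 660 fits without 1 library. The counts of members called moved by over 1.5 times in these cases. For EWS-FLI1 in no ARID1A, 0 became 2 with only the libraries compared, 1 with length and GC trends removed, 1 with the replicate block within each vector, 1 with that block and the length trend removed, and 3 with both trends removed and the block. In WT, 3 became 5 without a filter, with the block, with the block and either trend removal, and with length and GC trends removed. In ΔIDR1b, 2 became 4 with both trends removed and the block. The average went from 4 to 7 with the block, alone or with either trend removal. The interaction of ΔIDR1b with no ARID1A went from 0 to 1 (JUNB) with length and GC trends removed, with the block or without it. Leaving out 1 library gave 2 to 5 members for EWS-FLI1 in WT (3 with all), 1 to 3 in ΔIDR1b (2) and 4 to 7 on average (4), 5 to 9 for WT against no ARID1A with EV (9) and 4 to 8 with EWS-FLI1 (7), and 5 to 8 for ΔIDR1b against WT with EV (8). For EWS-FLI1 the 5 came without replicate 1 of WT with EWS-FLI1, the 1 without replicate 2 of ΔIDR1b with EV or with EWS-FLI1, and the 7 without replicate 2 of WT with EWS-FLI1. The lowest of the last 3 came without replicate 1 of WT with EV, replicate 1 of no ARID1A with EWS-FLI1 and replicate 2 of ΔIDR1b with EV. Smaller moves were 9 to between 8 and 9 for WT against no ARID1A with EV and 7 to between 5 and 9 with EWS-FLI1, 8 to between 8 and 9 for ΔIDR1b against no ARID1A with either vector, and 8 to between 7 and 8 (EV) and 6 to between 5 and 8 (EWS-FLI1) for ΔIDR1b against WT. The cause was not tested.

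Small differences that were not called changed sign. JUN in ΔIDR1b against no ARID1A with EV (0.02) became -0.0686 and -0.0643 with the length trend removed, without and with the block within each vector, -0.11 and -0.11 with the GC trend removed too, and ran from -0.0702 to 0.104 without 1 library. FOSL1 in ΔIDR1b against WT with EV (0.01) became -0.0010 without a filter, -0.0034 with the block over all libraries, -0.0465 and -0.0436 with the length trend removed, without and with the block, -0.093 and -0.093 with the GC trend too, and ran from -0.21 to 0.27. With EWS-FLI1 (0.30) it ran from -0.11 to 0.85. IER2 in ΔIDR1b against WT with EV (-0.06) became 0.0073 with upper-quartile factors and 0.11 with plain totals, and ran from -0.19 to 0.0628. Against no ARID1A with EWS-FLI1 (-0.10) it became 0.0061 with plain totals and ran from -0.22 to 0.0218. For WT with EWS-FLI1 (0.22) it ran from -0.0127 to 0.42. JUNB in WT against no ARID1A with EWS-FLI1 (0.02) became -0.0391 with upper-quartile factors, -0.0220 with plain totals, -0.0248 with a minimum count of 50 and -0.0043 with the block within each vector, and ran from -0.21 to 0.22. EGR1 in ΔIDR1b against WT with EWS-FLI1 (0.10) became -0.0245 and -0.0312 with the length trend removed, without and with the block, and -0.0533 and -0.0633 with the GC trend too, and ran from -0.12 to 0.28. The cause was not tested.

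The labels do not say what equal replicate numbers share. Over genes, the difference between replicates 1 and 2 correlated at 0.104 to 0.412 between groups of the same vector and at -0.223 to -0.0079 otherwise, so the replicate block is a hint from the data, not the design. Besides the members counted above, the block within each vector called IER2 in ΔIDR1b against no ARID1A with EV (-0.36, edgeR adjusted p = 0.0131), and with EWS-FLI1 FOSB in WT against no ARID1A (-0.57, 0.0413) and FOSL2 (0.34, 0.0311) and IER2 (-0.31, 0.0384) in ΔIDR1b against WT. For EWS-FLI1 in ΔIDR1b it added ATF3 (-0.35, 0.014). Plain library totals moved the median of all genes by 0.12 and 0.168 (log2) for ΔIDR1b against no ARID1A and WT with EV and by 0.103 and 0.141 with EWS-FLI1, and the share of calls that were higher from 49.4, 45.4, 50.3 and 45.6% to 64.1, 72.3, 61.5 and 72.5%. Upper-quartile factors moved that share from 55.6 to 39.4% and from 53.8 to 42.2% for WT against no ARID1A with EV and EWS-FLI1, and from 45.4 to 56.1% for ΔIDR1b against WT with EV. Over all genes the calls ranged across all alternatives from 5 to 26, 24 to 230 and 23 to 148 for EWS-FLI1 in no ARID1A, WT and ΔIDR1b (9, 45 and 35), and from 65 to 395 on average (95). Between ARID1A states, with EV, leaving out 1 of the libraries compared gave 802 to 1436 calls for WT against no ARID1A (2381, lowest without replicate 1 of WT), 4484 and 4495 for ΔIDR1b against no ARID1A without replicate 2 of ΔIDR1b or of no ARID1A (6778), and 2754, 2947 and 2821 for ΔIDR1b against WT without replicate 1 of WT and replicates 1 and 2 of ΔIDR1b (4995). With EWS-FLI1 it gave 1828 and 1878 for WT against no ARID1A without replicates 1 and 2 of no ARID1A (3684) and 1886 for ΔIDR1b against WT without replicate 1 of ΔIDR1b (3785). Fits of the libraries compared called 2202 and 1622 in these last 2. Removing both trends with the block gave up to 4392 (WT against no ARID1A, EV) and 6131 (the last). Changes near 1.5-fold were often missed at this depth and n.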
